A study of Arabidopsis thaliana with 4 samples.

Results

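To ask where JA (jasmonate) and cytokinin act on a transcript independently of each other and where they do not, an interaction was calculated for every gene that reached at least 5 FPKM (fragments per kilobase of transcript, scaled to the mapped fragments of the library) in at least one of 4 root transcriptomes. Of 33565 genes, 16525 met this rule, 16140 of them protein-coding. The roots were those of *Arabidopsis thaliana* Col-0, the wild type, grown for 7 days on solid medium. The JA/cytokinin library came from plants given 10 µM MeJA (methyl jasmonate) together with 50 nM BAP (the synthetic cytokinin benzylaminopurine), the JA library from plants given 10 µM MeJA alone, the cytokinin library from plants given 50 nM BAP alone, and the control library from plants given neither hormone. Each condition had 1 library, so the differences could not be set against replicates and carry no p-value. The whole root was used, so that fewer cells of a type and less RNA per cell cannot be told apart.

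The interaction is log2 of JA/cytokinin minus log2 of cytokinin minus log2 of JA plus log2 of control, with 0.1 FPKM added to each value. It is the JA response in the presence of cytokinin minus the JA response without cytokinin, and equally the cytokinin response with JA minus that without. At 0 the 2 responses multiply. A gene was called more than additive when the doubly treated roots had at least 2-fold more of its transcript than that product (an interaction of at least 1), and less than additive when they had at least 2-fold less (at most -1). More than additive therefore covers a gene that responds more strongly to both hormones than to either as well as a gene whose repression by one hormone is missing when the other is present, and the levels in the 4 libraries are given below to tell these apart.

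JA is perceived by the receptor COI1, which on binding the hormone directs JAZ repressor proteins to degradation and so frees transcription factors such as MYC2, which switch on defence genes and the JAZ genes themselves. Cytokinin is perceived by histidine kinases, which pass phosphate through AHP proteins to type-B response regulators. These activate the type-A response regulators, which in turn damp the signal. In roots JA is best known for inhibiting growth and promoting defence metabolism, and cytokinin for controlling vascular patterning and the exit of cells from the meristem.

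Most transcripts were close to additive. The median interaction over the 16525 genes was 0.01 and its scaled median absolute deviation 0.32, and 78.7% of genes lay within 0.5 of 0. Of the 16525 genes, 13036 were within 2-fold after each hormone alone. Where a gene hardly responds to either hormone, a value near 0 does not show that the hormones act independently. In all, 868 genes (5.25%) were more than additive and 483 (2.92%) were less than additive, so that 64.2% of the 1351 called genes were on the more side. By sign alone 8512 genes lay above 0 and 8013 below. The counts of each list below are to be read beside these shares. At the edge of the rule ADH1 reached 5.0047 FPKM and was included, whereas AT5G36260 reached 4.9993 FPKM and did not. At the upper threshold AT1G33612 lay just inside at 1.0011 and NAS1 just outside at 0.9983, and at the lower one ATERDJ3B lay inside at -1.0015 and AT3G43250, listed at 0 with cytokinin and in control roots, outside at -0.9996. Counting error alone, estimated from the depth of the libraries, left the 95% interval off 0 for 804 of the 808 more-than-additive genes for which an interval could be made and for 459 of 460 on the less side. For 502 and 288 genes the whole interval lay past 2-fold. These intervals do not include the spread between plants.

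**Figure D1:**
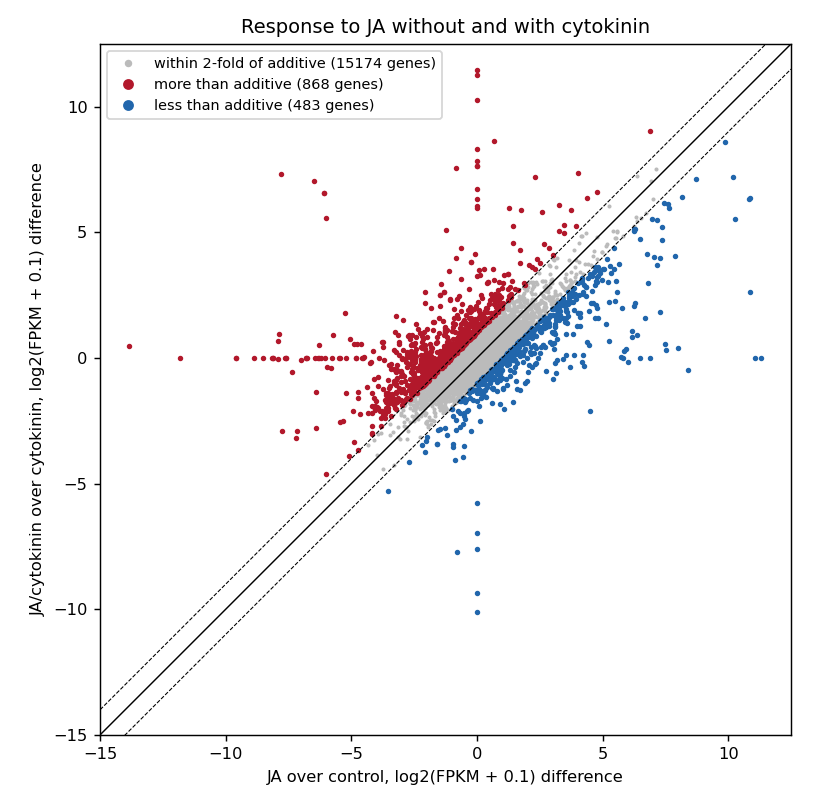
The log2 response to JA without cytokinin (x axis, JA over control) against the log2 response to JA with cytokinin (y axis, JA/cytokinin over cytokinin) for each of the 16525 genes, on the log2(FPKM + 0.1) scale. Genes on the diagonal are additive, the dashed lines mark an interaction of 1 and -1, and the 868 genes above and the 483 genes below these lines are coloured.

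Calls were unevenly spread over the mean level on the log scale, by which genes were divided into 10 equal groups. Of the lowest group 23.6% were more and 10.3% less than additive. In the other groups these shares were 2.06% to 6.17% and 1.21% to 2.72%. The lowest group held genes with a mean of up to 658 FPKM. A value near 0 in 1 library lowers the log mean and can also make the interaction large. The excess in the lowest group is therefore partly built in and cannot be put down to low expression alone. Of the 868 more-than-additive genes 577 had at least 1 FPKM in all 4 libraries and 296 reached 5 FPKM in only 1 of them. On the less side these numbers were 339 and 126 of 483. A gene that reached 5 FPKM in only 1 library entered the set through the library where it was high, which favours a call. Among the genes named below, AHP4, LOX2, NATA1, ERF1 and PUCHI, among others, reached it only with JA alone. Among all genes in the set 120 were listed at 0 in at least 1 library, which can be a failed estimate. The gene AT3G08520, which encodes the cytosolic ribosomal protein L41 and is strongly expressed in the other 3 libraries, had a listed value of 0 with JA alone. The interaction of such a gene is set by the added constant, and where a named gene is listed at 0 this is said.

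By depth the libraries were alike, with an estimated 87.8% to 92.8% of the read pairs mapped, and median-ratio scaling factors lay between 0.994 and 1.02. The libraries differed in genes of shoot tissue. The 13 genes used as markers of shoot tissues summed to 2.71 FPKM with JA/cytokinin, 1.44 with JA, 1.19 with cytokinin and 14.4 in control roots, and 5 of the 13 were at 0 with JA/cytokinin, 7 with JA, 8 with cytokinin and 0 in control roots. None of the 13 reached 5 FPKM in any library. The 14 genes used as root markers were all measured, the lowest at 1.83 FPKM with JA/cytokinin, 1.72 with JA, 1.83 with cytokinin and 2.25 in control roots. The share of FPKM on ribosomal RNA was 4.89% with JA/cytokinin, 1.28% with JA, 0.614% with cytokinin and 0.798% in control roots.

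The 2 directions were made of different single-hormone responses. Genes were classed as higher, lower or within 2-fold after each hormone alone. The values that set these classes also enter the interaction, so class and call are not independent. Of the 868 more-than-additive genes, 304 were lower after JA alone and lower after cytokinin alone (35.0%), and 70.2% of all 433 genes in that class were called more than additive. Their median level relative to control was -2.23 after JA, -4.11 after cytokinin and -4.25 after both on the log2 scale. For 139 of these 304 genes the multiplied responses predicted less than 0.1 FPKM, the size of the added constant, and the median level predicted was 0.137 FPKM against 1.14 FPKM measured. At such levels the interaction depends on the constant.

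By the rule of the call, the JA response of a more-than-additive gene is at least 2-fold higher with cytokinin than without. The medians below give only the size of that difference, first for the classes lowered by JA but not by cytokinin. Of the 810 genes lowered by JA alone and within 2-fold after cytokinin alone, 164 were called. Their median JA response was -0.54 with cytokinin and -2.16 without. Of the 132 genes lowered by JA and raised by cytokinin, 67 (50.8%) were called, with a median JA response of -0.75 with cytokinin and -2.55 without. A further 156 genes were within 2-fold after each hormone alone, 1.2% of the 13036 genes in that class, and their median JA response was 1.34 with cytokinin and -0.10 without. Of the 673 genes within 2-fold after JA and lowered by cytokinin 15.0% were called, with a median JA response of 0.99 with cytokinin and -0.43 without.

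Less-than-additive genes were mostly genes raised by JA alone. That their JA response was smaller with cytokinin follows from the call itself, and the medians give only its size. Of the 483, 215 were raised by JA alone and within 2-fold after cytokinin alone (44.5%), and their median JA response was 1.12 with cytokinin and 2.99 without. Another 85 were raised by each hormone alone, 52.8% of the 161 genes in that class, with a median JA response of 0.96 with cytokinin and 3.30 without. No gene on this side had a predicted level under 0.1 FPKM, and the median level was 8.92 FPKM measured against 29.7 FPKM predicted.

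**Figure D2:**
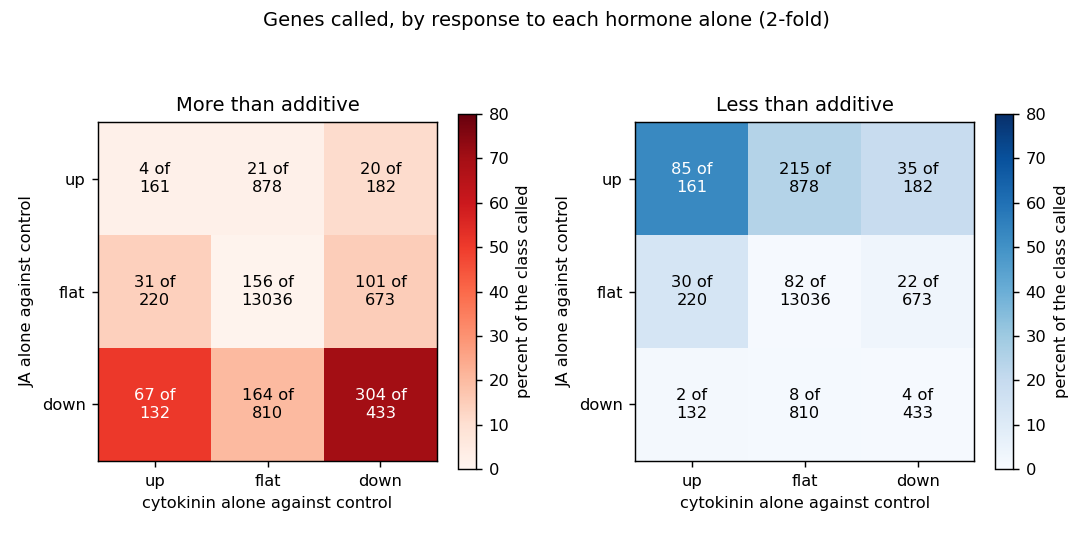
Genes called more than additive (left) and less than additive (right), by the response to JA alone and to cytokinin alone (higher, within 2-fold or lower than control). Each cell gives the number called and the number in the class, and its colour the percent called. On the more side the class lowered by both hormones is the fullest with 304 of 433 genes, and on the less side the class raised by both has the highest share with 85 of 161.

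Counted over all genes in the set, JA alone raised 1221 genes at least 2-fold and JA with cytokinin raised 1201, with 796 genes in common (66.3% of those raised with cytokinin and 65.2% of those raised without). JA lowered 889 genes with cytokinin and 1375 without, with 613 in common (69.0% and 44.6%). Cytokinin raised 880 genes with JA and 513 without, and 288 were in common (32.7% and 56.1%). It lowered 1260 genes with JA and 1288 without, and 834 were in common (66.2% and 64.8%). The direction itself differed for few genes: 8 genes raised by JA alone were lowered by JA with cytokinin, and 38 went the other way. Likewise 33 genes raised by cytokinin alone were lowered by cytokinin with JA, and 18 went the other way.

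A run of 5 neighbouring genes on chromosome 4 (TAIR10.1 positions 8925571 to 8938124, all on the plus strand) was more than additive throughout. AT4G15660, AT4G15670, AT4G15680, AT4G15690 and AT4G15700 are annotated as thioredoxin superfamily proteins with a plant II glutaredoxin-like domain. Glutaredoxins are small redox enzymes that use glutathione, and the members of this plant class are known to work with TGA transcription factors. AT4G15680 had 37.4 FPKM with JA/cytokinin, 1.57 with JA, 3.31 with cytokinin and 3.55 in control roots, and its interaction was 4.58 (95% counting interval 3.97 to 5.22). In AT4G15660 the values were 20.5 FPKM with JA/cytokinin, 1.97 with JA, 2.2 with cytokinin and 3.13 in control roots (interaction 3.80). AT4G15690 had 27.4 FPKM with JA/cytokinin, 4.78 with JA, 2.74 with cytokinin and 4.80 in control roots (interaction 3.28).

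All 5 genes were thus low in every library but the doubly treated one. AT4G15670 had 15.4 FPKM with JA/cytokinin, 1.44 with JA, 0.991 with cytokinin and 1.73 in control roots (interaction 4.08). For AT4G15700 there were 16.0 FPKM with JA/cytokinin, 3.06 with JA, 1.05 with cytokinin and 3.57 in control roots (interaction 4.02). The 5 transcripts are 83.6% to 88.7% identical to each other over their aligned parts, so that reads from one may have been given to another. Their promoters (250 bases before to 50 after the annotated start) share one stretch of 11 bases, which 7 of 16139 promoters in the set hold (0.0434%). The windows below are from the RefSeq TAIR10.1 genome, plus strand, 5′ to 3′, with that stretch in capitals, and are shown because the 5 genes moved together.
AT4G15660 (chr4:8925499-8925559): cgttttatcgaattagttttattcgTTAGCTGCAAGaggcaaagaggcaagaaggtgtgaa
AT4G15670 (chr4:8928856-8928916): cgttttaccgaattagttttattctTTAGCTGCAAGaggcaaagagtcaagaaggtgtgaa
AT4G15680 (chr4:8931440-8931500): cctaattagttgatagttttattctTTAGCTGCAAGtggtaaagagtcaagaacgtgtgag
AT4G15690 (chr4:8934029-8934089): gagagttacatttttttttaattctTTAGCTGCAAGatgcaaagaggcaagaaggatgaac
AT4G15700 (chr4:8937100-8937160): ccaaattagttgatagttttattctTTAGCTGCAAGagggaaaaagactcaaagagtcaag

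The stretch lay 47 bases before the annotated start in AT4G15660, 150 in AT4G15670, 152 in AT4G15680, 242 in AT4G15690 and 233 in AT4G15700. It is a description of shared letters and not of a binding site. The run prompted a look at all genes with the same annotated domain, a list chosen after its values were seen. Of 20 annotated genes 12 reached 5 FPKM. Their median interaction was 3.91, 10 were more than additive and 0 less, and 9 of the 12 (75%) had their highest level in JA/cytokinin roots, against 25.9% of all genes in the set. The genes of the run are counted here. They, AT2G30540 and AT1G06830 reached 5 FPKM only in the JA/cytokinin library and so entered the set through it. These shares were therefore partly fixed by the filter and by the choice of list. AT2G30540, which lies on another chromosome, had 10.6 FPKM with JA/cytokinin, 0.569 with JA, 0.512 with cytokinin and 0.60 in control roots (interaction 4.19). AT1G06830 had 7.44 FPKM with JA/cytokinin, 0.492 with JA, 2.53 with cytokinin and 4.49 in control roots (interaction 4.48).

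The remaining members of the domain list differed among themselves. GRX480, a glutaredoxin known from the crosstalk of salicylate and JA, had 56.6 FPKM with JA/cytokinin, 74.3 with JA, 5.41 with cytokinin and 6.3 in control roots, an additive JA response (interaction -0.18). AT4G33040 was also additive (-0.23). AT5G18600 was listed at 0 in all 3 hormone libraries and at 7.63 FPKM in control roots, so its call rests on the control alone. ROXY2, known from anther development, was called and was, like the genes of the run, highest with both hormones, with 13.3 FPKM with JA/cytokinin, 3.63 with JA, 7.44 with cytokinin and 4.81 in control roots (interaction 1.23).

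**Figure D3:**
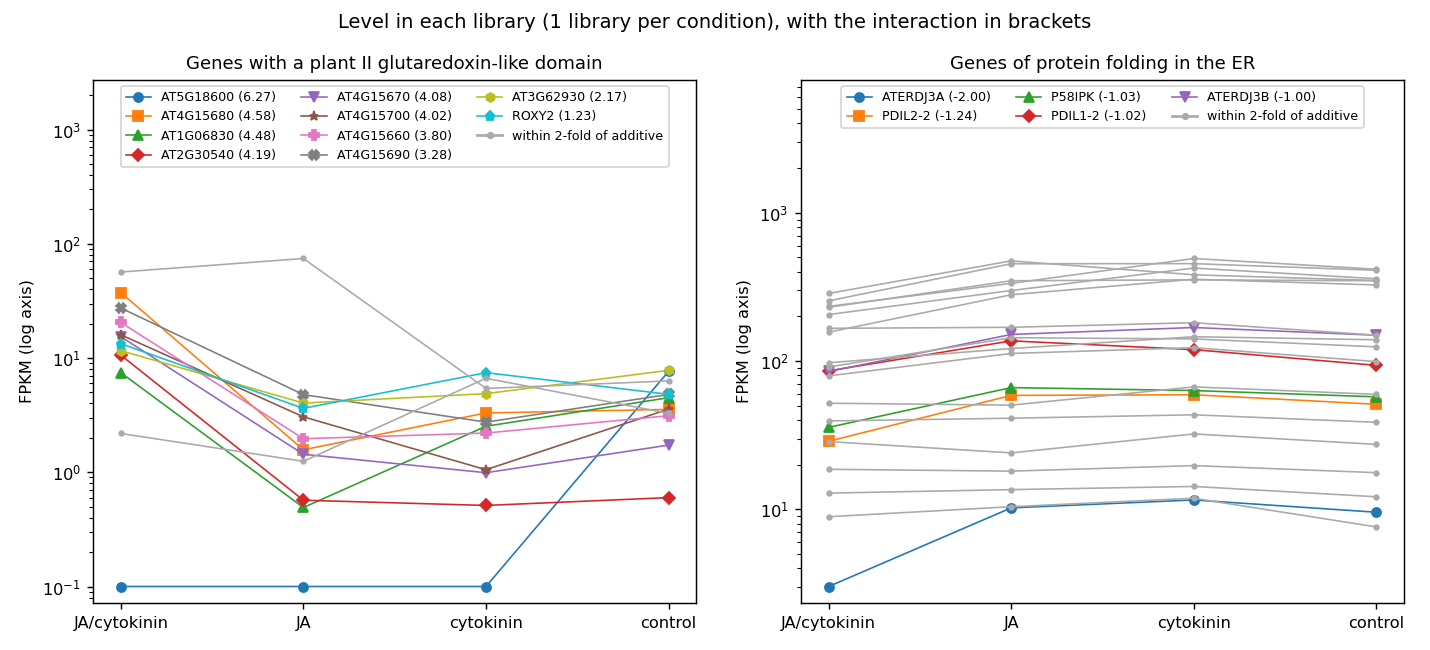
FPKM (log axis) in the JA/cytokinin, JA, cytokinin and control libraries for the 12 genes with a plant II glutaredoxin-like domain (left) and for 21 genes of protein folding in the endoplasmic reticulum (right), 1 line per gene. Genes past 2-fold are coloured with their interaction in brackets, and values under 0.1 FPKM are drawn at 0.1. In the left panel 9 of 12 genes are highest with JA/cytokinin, and in the right panel 14 of 21 are lowest there.

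Genes of protein folding in the endoplasmic reticulum (ER), a list also chosen after its values were seen, were lowest in the doubly treated roots. These proteins help newly made secreted proteins to fold. Of the 21 genes that reached 5 FPKM 20 had an interaction below 0, with a median of -0.81, 5 were less than additive and 0 more, and 14 (66.7%) had their lowest level with JA/cytokinin, against 21.3% of all genes. The chaperone BIP2 had 234 FPKM with JA/cytokinin, 334 with JA, 492 with cytokinin and 416 in control roots (interaction -0.76), and its close relative BIP1 had -0.78. The calcium-binding chaperone gene CRT1a had 255 FPKM with JA/cytokinin, 454 with JA, 454 with cytokinin and 410 in control roots (interaction -0.98). The largest departure was that of ATERDJ3A, a J-domain co-chaperone, with 3.02 FPKM with JA/cytokinin, 10.2 with JA, 11.6 with cytokinin and 9.57 in control roots (interaction -2.0, 95% counting interval -2.23 to -1.78).

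Counting intervals were narrow for the abundant genes of this list, although most of its genes stayed under 2-fold. For BIP2 the interval was -0.78 to -0.73 and for CRT1a -1.01 to -0.95. The protein disulfide isomerase PDIL2-2 had 28.8 FPKM with JA/cytokinin, 58.8 with JA, 59.3 with cytokinin and 51.2 in control roots (interaction -1.24). TIN1, a gene known to be induced when ER folding is blocked by tunicamycin, had 1.08 FPKM with JA/cytokinin, 6.16 with JA, 6.53 with cytokinin and 5.66 in control roots (interaction -2.61). TIN1 is not on this list. It was named for its large interaction among less-than-additive genes within 2-fold after each hormone alone, so it adds no support to the list. Whether the spread between plants reaches this size cannot be read from 1 library per condition.

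Among cytokinin signalling genes the type-A response regulators were on the more-than-additive side. Of 10 type-A response regulators, 4 were more and 0 less than additive, with a median of 0.86, against 5.25% of all genes on the more side. ARR7 had 35.0 FPKM with JA/cytokinin, 2.15 with JA, 20.7 with cytokinin and 14.2 in control roots, and its interaction was 3.42 (95% counting interval 3.06 to 3.78). ARR16 had 4.96 FPKM with JA/cytokinin, 0.381 with JA, 7.86 with cytokinin and 3.70 in control roots (interaction 2.33). ARR5 had 112 FPKM with JA/cytokinin, 27.8 with JA, 105 with cytokinin and 58.4 in control roots (interaction 1.17).

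In each of these the JA library was the low one, and the JA/cytokinin library lay above the control. ARR6 had the same order with an interaction of 1.07, and ARR4 (0.85) and ARR8 (0.62) stayed under the threshold. ARR17 was the only type-A gene below 0 (-0.52). The median of the list after JA was 0.16 with cytokinin and -0.85 without on the log2 scale, and after cytokinin 1.57 with JA and 0.64 without. The 5 type-B regulators, the activators, had a median of -0.05, with ARR11 (1.2) as the called member, and 4 cytokinin response factors had a median of -0.17 with none called.

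Of 8 cytokinin synthesis and transport genes 3 were more than additive, and of 7 degradation and conjugation genes 1 (median 0.26). CYP735A2, which makes trans-zeatin-type cytokinins, had 40.7 FPKM with JA/cytokinin, 1.11 with JA, 43.1 with cytokinin and 15.5 in control roots (interaction 3.61, 95% counting interval 3.32 to 3.90). The cytokinin oxidase gene CKX4, which encodes a degrading enzyme, had 21.9 FPKM with JA/cytokinin, 2.54 with JA, 10.1 with cytokinin and 6.35 in control roots (interaction 2.4). IPT3, an isopentenyltransferase for the first step of synthesis, had 18.1 FPKM with JA/cytokinin, 9.38 with JA, 6.04 with cytokinin and 8.31 in control roots (interaction 1.39). CYP735A2 and CKX4 were low with JA alone, whereas IPT3 was high with both hormones and near the control level otherwise. The last called gene of synthesis was LOG1 (1.19), which activates cytokinin and was lowered by each hormone.

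The phosphotransfer proteins split. AHP4 had 1.18 FPKM with JA/cytokinin, 16.4 with JA, 0.585 with cytokinin and 0.098 in control roots (interaction -5.48), that is, a high level with JA alone. AHP6, the pseudo-phosphotransfer protein that inhibits cytokinin signalling in protoxylem, was listed at 0.578 FPKM with JA/cytokinin, 1176 with JA, 0.139 with cytokinin and 1317 in control roots (interaction 1.67, or 0.63 with a pseudocount of 1). Levels this high in 2 libraries and under 1 FPKM in the others can be a fault of estimation, which was not tested. The other 7 receptors and phosphotransfer proteins lay within 2-fold. AHP4 overlaps another annotated gene on the opposite strand, and whether strand was used in counting is not given in the sources used here.

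The PIN auxin carriers, membrane proteins that move auxin out of cells or within them, were additive with 1 exception. PIN5, which acts at the ER membrane, had 6.62 FPKM with JA/cytokinin, 0.165 with JA, 3.18 with cytokinin and 2.47 in control roots (interaction 4.32, 95% counting interval 3.63 to 4.96). PIN5 reached 5 FPKM only in the JA/cytokinin library and so entered the set through it, which favours a call. Of 8 PIN genes 6 met the 5 FPKM rule. The other 5 PIN genes in the set lay between -0.49 and 0.05. MLP328, a major latex protein-like gene on chromosome 2 (positions 235925 to 237253), had the highest interaction among genes with at least 1 FPKM in all libraries. It had 237 FPKM with JA/cytokinin, 1.88 with JA, 307 with cytokinin and 123 in control roots (5.59, 95% counting interval 5.25 to 5.94). Part of its transcript is 90.4% identical to AT4G14060, so reads may be shared. Of 6 major latex protein genes 4 were more than additive.

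In the JA pathway the departures ran the other way. All 11 JA synthesis genes had an interaction below 0 (median -0.90) and 4 were less than additive. Over all genes 8013 of 16525 lay below 0 and 2.92% were less than additive. AOS, which commits lipid peroxides to JA synthesis, had 56.2 FPKM with JA/cytokinin, 117 with JA, 17.3 with cytokinin and 11.9 in control roots (interaction -1.59). The lipoxygenase gene LOX2, which supplies those peroxides in leaves, was at 0.0446 FPKM with JA/cytokinin, 11.9 with JA, 0 with cytokinin and 0.444 in control roots, and its interaction of -3.93 depends on the constant added to the values near 0. The cyclase genes AOC3 (-1.07) and AOC4 (-1.04) were the other called genes. The median JA response of the list was 0.53 with cytokinin and 1.59 without on the log2 scale.

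The 12 JAZ repressor genes had a median of -0.39, with 3 less than additive and 0 more. JAZ10 had 260 FPKM with JA/cytokinin, 449 with JA, 6.85 with cytokinin and 2.59 in control roots (interaction -2.16, 95% counting interval -2.38 to -1.95). JAZ1 had 273 FPKM with JA/cytokinin, 397 with JA, 73.3 with cytokinin and 42.9 in control roots (interaction -1.31). JAZ8 had 5.12 FPKM with JA/cytokinin, 16.8 with JA, 0.441 with cytokinin and 0.610 in control roots (interaction -1.30). JAZ10 and JAZ1 were already higher with cytokinin alone than in control roots, and all 3 were highest with JA alone. The 5 JA turnover genes, whose products inactivate JA, lay between -1.18 and -0.56.

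Among JA output genes the order of the libraries differed from gene to gene. JRG21, annotated as a jasmonate-regulated gene, had 57.3 FPKM with JA/cytokinin, 707 with JA, 1.13 with cytokinin and 0.468 in control roots (interaction -4.74). NATA1, which acetylates ornithine in defence, had 0.171 FPKM with JA/cytokinin, 9.02 with JA, 0.0271 with cytokinin and 0.0272 in control roots (interaction -5.07). For NATA1 the levels other than JA are close to the floor of 3 fragments, about 0.06 FPKM on 1 kb of transcript, so the size of the value depends on the added constant. The JA-raised ethylene response factor gene ERF1 had 1.76 FPKM with JA/cytokinin, 18.5 with JA, 0.414 with cytokinin and 0.747 in control roots (interaction -2.59).

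Of the vegetative storage protein genes, classical JA markers, VSP1 was on the other side. It had 273 FPKM with JA/cytokinin, 26.2 with JA, 40.8 with cytokinin and 11 in control roots (interaction 1.49, 95% counting interval 1.34 to 1.65). VSP2 had 214 FPKM with JA/cytokinin, 97.6 with JA, 2.54 with cytokinin and 0.669 in control roots (interaction -0.65). Both were highest in the doubly treated roots. TAT3, a JA-induced tyrosine aminotransferase gene, was also highest there, with 344 FPKM with JA/cytokinin, 272 with JA, 12.8 with cytokinin and 2.93 in control roots. Each hormone alone raised TAT3, and its interaction was -1.75 because the level with both fell short of the product of these responses. When responses were added on the FPKM scale its sign was the reverse (0.29). In the MYC branch 4 of 9 genes were less and 1 more than additive, and in the ERF branch 2 of 5 were less and 1, ORA59 (1.22), more.

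**Figure D4:**
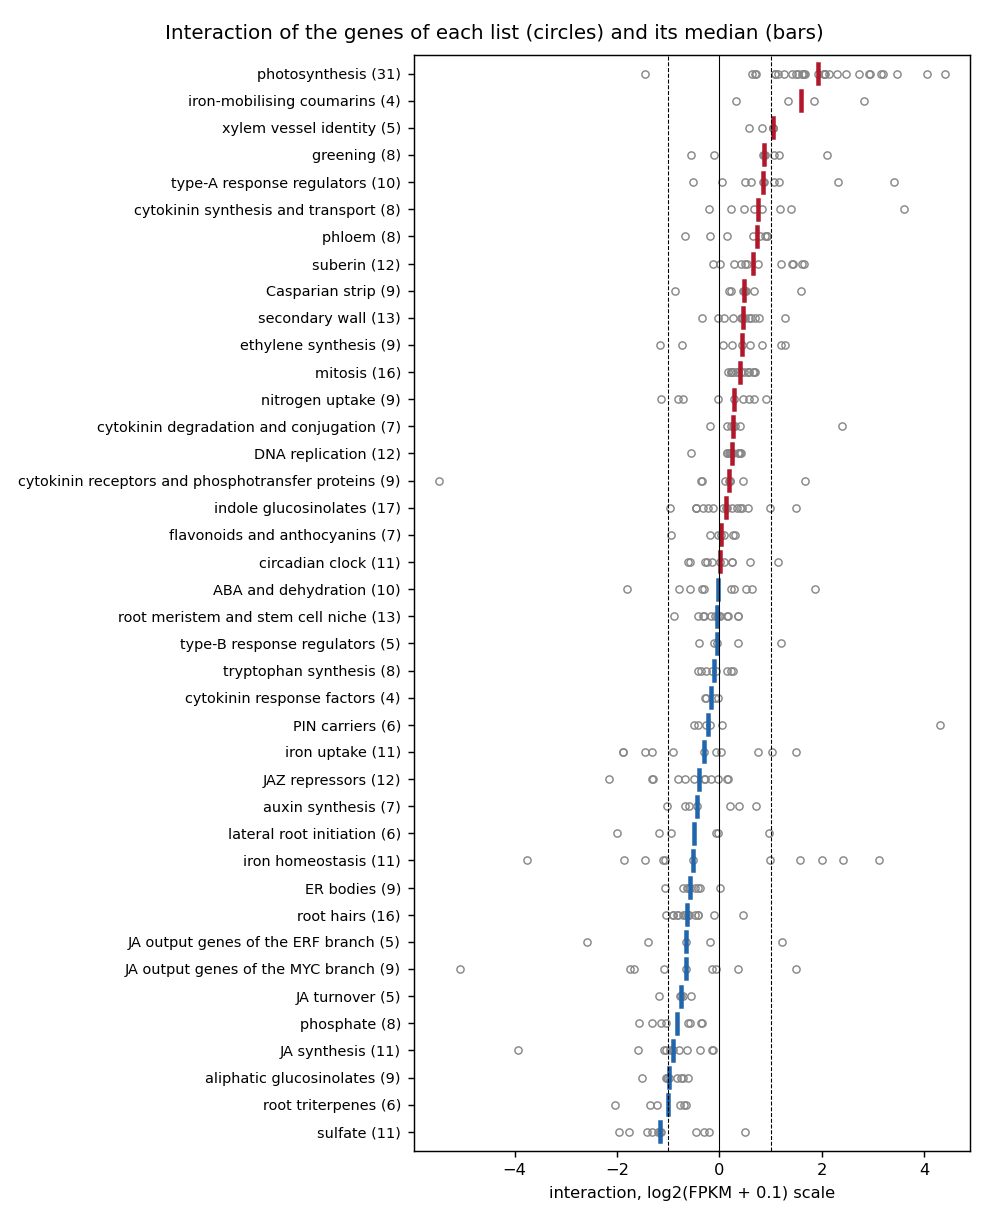
Interaction on the log2(FPKM + 0.1) scale of each gene (circles) in the function lists with at least 4 genes in the set, with the median of each list as a bar and the number of genes in brackets. Lists are ordered from photosynthesis (median 1.93) to sulfate (median -1.15), and the dashed lines mark an interaction of 1 and -1.

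Sulfate nutrition had the lowest median of the lists, -1.15 over 11 genes, with 7 less than additive and 0 more. Over all genes 2.92% were less than additive. The sulfate transporter SULTR1;2, which takes up sulfate at the root surface, had 52.3 FPKM with JA/cytokinin, 176 with JA, 47.2 with cytokinin and 59.5 in control roots (interaction -1.42, 95% counting interval -1.47 to -1.37). SULTR2;1, a vascular sulfate transporter, had 49.0 FPKM with JA/cytokinin, 91.9 with JA, 4.24 with cytokinin and 3.17 in control roots (interaction -1.31). All 3 genes of APS reductase, the step that reduces activated sulfate, were called. APR3 had 57.1 FPKM with JA/cytokinin, 125 with JA, 110 with cytokinin and 108 in control roots (interaction -1.15).

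APR1 (-1.20) and APR2 (-1.15) were highest with JA alone as well, whereas APR3 stood out through its low level in the doubly treated roots. LSU1, a marker of sulfur shortage, had 31.6 FPKM with JA/cytokinin, 46.3 with JA, 24.1 with cytokinin and 8.98 in control roots (interaction -1.96), and its relative LSU2 had -1.77. In the LSU genes the control was the low library, so that each hormone alone raised them and the 2 responses did not multiply. APS1 (-0.46), SDI1 (-0.31) and APS3 (-0.20) were nearer to additive, and SULTR1;1 lay above 0 at 0.50.

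The 8 phosphate genes all lay below 0, as did 8013 of all 16525 genes. Their median was -0.82 and 4 were less than additive, against 2.92% of all genes. The transporter gene PHT1;4 had 21.9 FPKM with JA/cytokinin, 55.7 with JA, 22.9 with cytokinin and 19.6 in control roots (interaction -1.57), and PHT1;1 had 86.0 FPKM with JA/cytokinin, 206 with JA, 120 with cytokinin and 140 in control roots (interaction -1.04). The acid phosphatase gene PAP17 (-1.32) and PHT1;2 (-1.14) were the other called genes. PHT1;4 and PAP17 were each high in the JA library alone, whereas PHT1;1 and PHT1;2 were highest with JA and lowest with JA/cytokinin. Nitrogen uptake genes had a median of 0.29, with NRT3.1, a partner of nitrate transporters, as the called gene (-1.15).

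Iron homeostasis genes were called in both directions, 4 more and 5 less than additive of 11. Nicotianamine synthase 4 (NAS4), whose product binds iron for transport, had 8.47 FPKM with JA/cytokinin, 76.8 with JA, 5.47 with cytokinin and 3.60 in control roots, and its interaction was -3.76 (95% counting interval -4.04 to -3.48). The phloem iron transporter gene OPT3 had 35.5 FPKM with JA/cytokinin, 143 with JA, 45.5 with cytokinin and 50.5 in control roots (interaction -1.86). ZIF1, a vacuolar transporter, had 39.4 FPKM with JA/cytokinin, 224 with JA, 17.0 with cytokinin and 35.5 in control roots (interaction -1.45). These genes, with the reductase FRO3 (-1.09) and the ubiquitin ligase BTS (-1.06), were highest with JA alone.

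The ferritins, which store iron, were on the other side. FER1 had 78.6 FPKM with JA/cytokinin, 12.2 with JA, 94.1 with cytokinin and 59.2 in control roots (interaction 2.01, 95% counting interval 1.88 to 2.14). FER4 had 14.5 FPKM with JA/cytokinin, 3.0 with JA, 11.4 with cytokinin and 12.9 in control roots (interaction 2.42). FER3 was also called (1.57), as was the nicotianamine synthase gene NAS2 (3.12), which was highest in control roots. All 3 ferritin genes were low in the JA library alone and near or above control with both hormones. F6'H1, which starts the synthesis of iron-mobilising coumarins, shared this order, with 233 FPKM with JA/cytokinin, 77.9 with JA, 195 with cytokinin and 237 in control roots (interaction 1.86).

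Of 11 iron uptake genes 4 were less and 2 more than additive (median -0.29, or 1.60 on the FPKM scale), and their median cytokinin response was -3.47 with JA and -2.82 without. The iron transporter gene IRT1 had 0.202 FPKM with JA/cytokinin, 400 with JA, 2.42 with cytokinin and 906 in control roots (interaction -1.88). BHLH39, a partner of the iron regulator FIT, had 14.5 FPKM with JA/cytokinin, 161 with JA, 26.8 with cytokinin and 109 in control roots (interaction -1.44), and BHLH38 (-1.89) and BHLH100 (-1.31) were also less than additive. FIT itself was on the other side with 8.81 FPKM with JA/cytokinin, 25 with JA, 10.7 with cytokinin and 62.2 in control roots (interaction 1.03). On the FPKM scale the signs of IRT1 and BHLH100 were the reverse (1.60 and 1.84). With a pseudocount of 1 their interactions were -0.33 and -0.38, so that both calls depend on the added constant.

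The G-box CACGTG, a motif that MYC2 and iron-related basic helix-loop-helix factors are known to bind, was counted in the promoter windows of both directions. It was present on either strand in 9.21% of 793 promoters of more-than-additive genes, 12.4% of 460 promoters of less-than-additive genes and 8.95% of all 16139. By list it was present in 5 of 11 iron homeostasis genes, 4 of 12 JAZ genes, 2 of 11 JA synthesis genes, 2 of 11 iron uptake genes, 10 of 31 photosynthesis genes, 4 of 7 flavonoid genes and 5 of 11 clock genes, and in 0 of 9 JA output genes of the MYC branch, 0 of 5 JA turnover genes, 0 of 11 sulfate genes and 0 of 12 suberin genes. Examples from called genes on both sides are printed from RefSeq TAIR10.1, 5′ to 3′ on the strand of the gene, with the first match in capitals. A further match in the printed stretch of BTS is left in lower case.
JAZ8 (chr1:10596317-10596372, plus strand): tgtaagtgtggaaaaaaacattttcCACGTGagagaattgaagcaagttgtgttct
AOS (chr5:17099571-17099626, minus strand): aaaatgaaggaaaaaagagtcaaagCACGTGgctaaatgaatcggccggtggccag
OPT3 (chr4:9250391-9250446, minus strand): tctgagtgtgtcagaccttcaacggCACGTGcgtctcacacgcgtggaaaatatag
BTS (chr3:6273795-6273850, plus strand): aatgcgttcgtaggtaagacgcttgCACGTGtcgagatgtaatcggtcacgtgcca
FER4 (chr2:16833333-16833388, minus strand): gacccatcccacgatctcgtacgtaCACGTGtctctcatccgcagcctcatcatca

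The motif was thus in the windows of genes that moved in opposite directions: OPT3 and BTS, highest with JA alone, and FER4, lowest there. Other motifs were at similar shares in the 3 sets. The GCC box GCCGCC was in 2.4% of more-than-additive, 3.26% of less-than-additive and 2.61% of all promoters, the W box TTGACC in 13.6%, 15.9% and 14.6%, and the evening element AAAATATCT in 4.29%, 3.26% and 3.07%. Both strands were searched and matches may overlap. These are counts of letters in short windows and not of binding.

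**Figure D5:**
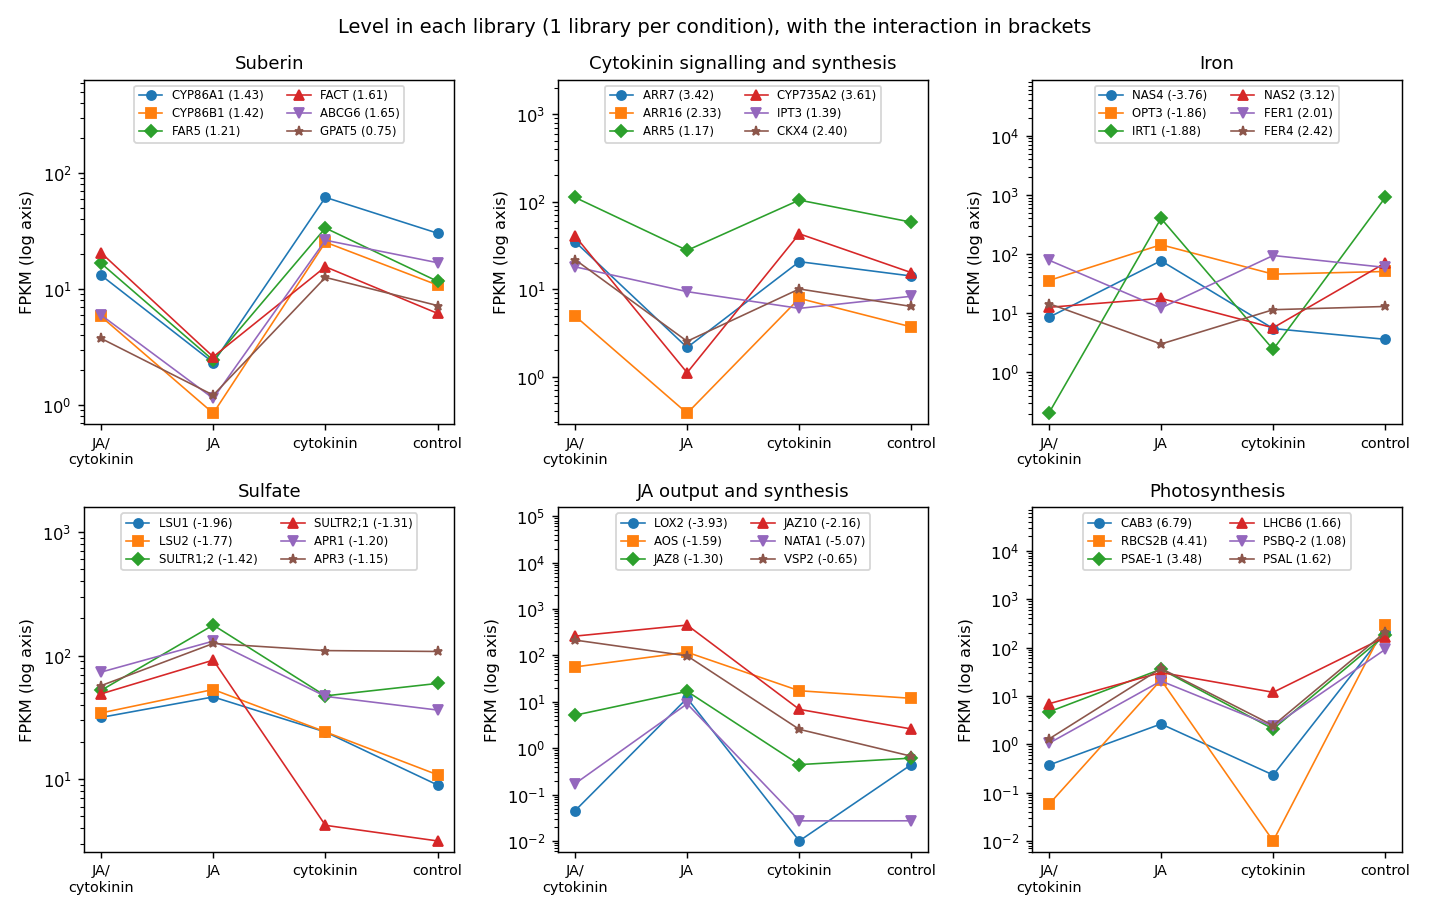
FPKM (log axis) in the JA/cytokinin, JA, cytokinin and control libraries for 6 genes each of suberin, cytokinin signalling and synthesis, iron, sulfate, JA output and synthesis, and photosynthesis, with the interaction in brackets. Values under 0.01 FPKM are drawn at 0.01. The ferritins FER1 and FER4, the type-A regulators and the suberin genes dip in the JA library, the sulfate transporter SULTR1;2 peaks there, and the photosynthesis genes are highest in control roots.

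Defence metabolites that JA is known to raise were less than additive in part. The 9 aliphatic glucosinolate genes all lay below 0 (median -0.98), with 4 called, against 2.92% of all genes on the less side. MAM3, which extends methionine side chains for these sulfur-rich defence compounds, had 103 FPKM with JA/cytokinin, 303 with JA, 54.0 with cytokinin and 78.1 in control roots (interaction -1.03). MAM1 (-1.03), CYP83A1 (-1.02) and FMOGS-OX1 (-1.51) were the others. The 17 indole glucosinolate genes, by contrast, had a median of 0.13. CYP79B3, which converts tryptophan to the first intermediate, was the called gene, with 103 FPKM with JA/cytokinin, 25.7 with JA, 57.4 with cytokinin and 40.4 in control roots (interaction 1.49).

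The root triterpene genes, which lie in gene clusters, were higher after each hormone alone, with a median response of 1.40 to JA and 1.70 to cytokinin. All 6 genes lay below 0 (median -1.0) and 3 were called, against 2.92% of all genes on the less side. Marneral synthase (MRN1) had 162 FPKM with JA/cytokinin, 134 with JA, 78.8 with cytokinin and 15.8 in control roots (interaction -2.05, 95% counting interval -2.12 to -1.97). Thalianol synthase (THAS1) had 592 FPKM with JA/cytokinin, 413 with JA, 503 with cytokinin and 150 in control roots (interaction -1.23). Although less than additive, both were highest with both hormones. Genes of ER bodies, the beta-glucosidase stores of root cells, had a median of -0.57 with BGLU22 (-1.05) as the called gene of 9.

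Glutathione transferases, which detoxify small molecules, had 8 less-than-additive and 1 more-than-additive gene of 33. GSTU20 had 91.2 FPKM with JA/cytokinin, 205 with JA, 53.6 with cytokinin and 22.4 in control roots (interaction -2.42). GSTU4, GSTU3 and GSTU2 lie next to each other on chromosome 2 and were all less than additive (-1.92, -1.50 and -1.19). Among 11 such runs of at least 3 called neighbours, another on chromosome 5 held the amino acid permease gene AAP7 and 3 genes for MD-2-related lipid recognition proteins. Of these AT5G23820 had 2911 FPKM with JA/cytokinin, 2269 with JA, 481 with cytokinin and 165 in control roots (interaction -1.18).

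Suberin, the waxy barrier polymer of the endodermis, was on the more-than-additive side with 5 of 12 genes and 0 less (median 0.65). FACT, which makes suberin-associated esters, had 20.5 FPKM with JA/cytokinin, 2.60 with JA, 15.6 with cytokinin and 6.16 in control roots (interaction 1.61). The fatty acid hydroxylase gene CYP86A1 had 13.1 FPKM with JA/cytokinin, 2.32 with JA, 61.8 with cytokinin and 30.3 in control roots (interaction 1.43). CYP86B1 (1.42), the lipid exporter gene ABCG6 (1.65) and the reductase gene FAR5 (1.21) had JA as the lowest library too. On the FPKM scale the median of the list was -0.58, and the signs of CYP86A1, CYP86B1, ABCG6 and FAR5 were the reverse (-1.35, -1.39, -0.82 and -0.54). Of 9 Casparian strip genes only CASP5 was called (1.59), and its high library was the control.

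All 5 xylem vessel genes lay above 0, with a median of 1.04, and 3 were called, each close to the threshold. Over all genes 8512 of 16525 lay above 0 and 5.25% were more than additive. The protease gene XCP1, active in dying vessel cells, had 40.2 FPKM with JA/cytokinin, 34.4 with JA, 30.3 with cytokinin and 53.9 in control roots (interaction 1.05), and XCP2 had the same value. BFN1, a nuclease gene of the same cells, had 5.72 FPKM with JA/cytokinin, 7.08 with JA, 1.09 with cytokinin and 2.92 in control roots (interaction 1.04). XCP1 and XCP2 were highest in control roots, whereas BFN1 was highest with JA. The 13 secondary wall genes had a median of 0.47 with CTL2 called (1.28), and the 8 phloem genes a median of 0.73 with none called. The phloem regulator APL had 37.1 FPKM with JA/cytokinin, 20.0 with JA, 8.52 with cytokinin and 8.75 in control roots (interaction 0.92).

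Genes of growth and cell division mostly stayed under 2-fold, but some lists leaned to 1 side. None of 16 mitosis genes was called, though all 16 lay above 0 (median 0.39). Their median JA response was 0.22 with cytokinin and -0.25 without. The 42 histone genes had a median of 0.44 with none called. Over all 16525 genes 8512 lay above 0 and 8013 below. As 5.25% of all genes were more than additive, 0 of 16 called does not show additivity. The cytokinesis syntaxin gene KN had 40.2 FPKM with JA/cytokinin, 30.5 with JA, 33.6 with cytokinin and 40.7 in control roots (interaction 0.67). For 12 DNA replication genes the median was 0.25, for 13 meristem and stem cell niche genes -0.04, for 16 Aux/IAA genes 0.11 and for 210 cytosolic ribosomal proteins 0.29. Root hair genes leaned the other way, with 15 of 16 below 0 (median -0.64) and the cell wall protein gene PRP1 called (-1.05). PRP1 had 162 FPKM with JA/cytokinin, 146 with JA, 381 with cytokinin and 165 in control roots.

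Tryptophan synthesis (median -0.10), flavonoids (0.03, or -0.97 on the FPKM scale) and the circadian clock (0.01) were also close to 0, with ELF4 as the called clock gene (1.15). In lateral root initiation 2 of 6 genes were less than additive. PUCHI, which limits divisions in new primordia, had 1.47 FPKM with JA/cytokinin, 5.13 with JA, 2.46 with cytokinin and 2.02 in control roots (interaction -2.0). Of the 9 ethylene synthesis genes, ACS6 was less than additive (-1.16) and ACS2 (1.21) and ACS5 (1.29) were more, and on the FPKM scale ACS2 and ACS5 had the reverse sign (-0.49 and -0.72).

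Photosynthesis genes had a median of 1.93, the highest of the lists apart from that of the glutaredoxin domain, with 27 of 31 more than additive and 1 less. The photosystem I gene PSAE-1 had 4.66 FPKM with JA/cytokinin, 35.6 with JA, 2.06 with cytokinin and 181 in control roots (interaction 3.48). The light-harvesting gene LHCB6 had 6.87 FPKM with JA/cytokinin, 30.4 with JA, 11.9 with cytokinin and 166 in control roots (interaction 1.66). CAB3, another light-harvesting gene, had 0.370 FPKM with JA/cytokinin, 2.62 with JA, 0.231 with cytokinin and 212 in control roots (interaction 6.79), but parts of its transcript are 94.1% and 96.1% identical to its neighbours. The 1 gene on the other side was PSBS (-1.45), which protects photosystem II from excess light, and its sign was the reverse on the FPKM scale (3.36).

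The control was by far the highest library for these genes. The median cytokinin response of the list was -3.78 with JA and -5.10 without, and its median JA response -0.72 with cytokinin and -2.51 without. In the whole set 176 genes were at least 4-fold higher in control roots than in each other library, of which 163 were more than additive (18.8% of all more-than-additive genes) and 30 belonged to the photosynthesis list. A control level far above the JA level raises the interaction, so that the number called follows largely from how these genes were picked. The 13 shoot markers given above were also highest in the control library, at 14.4 FPKM in sum, and their part in the result was not tested. Without the 176 genes 705 genes were more and 482 less than additive, an alternative chosen after seeing the data. Greening regulators and chlorophyll synthesis genes had a median of 0.88 with 3 of 8 called.

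The control library stood apart in other called genes too. Of the 868 more-than-additive genes, 108 had a high control library with the others close to each other, 88 a high JA/cytokinin library and 45 a low cytokinin library, a low JA library was nearly as common as a high control, and 526 showed no such pattern. Of the 483 less-than-additive genes, 90 had a high JA library, 39 a low JA/cytokinin library, 37 a low control and 28 a high cytokinin library, and 289 showed none. With 1 library per condition, a value peculiar to 1 library and a response peculiar to 1 condition cannot be told apart. GER1 (AT1G72610), a germin-like protein gene, had 7.04 FPKM with JA/cytokinin, 5.50 with JA, 5.70 with cytokinin and 54.9 in control roots (interaction 3.59).

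At the other extreme the lipid transfer protein gene EARLI1 had 38.5 FPKM with JA/cytokinin, 1179 with JA, 69.4 with cytokinin and 145 in control roots, the lowest interaction among genes with at least 1 FPKM throughout (-3.88, 95% counting interval -3.98 to -3.77). AT1G13609, annotated as defensin-like, had 2.65 FPKM with JA/cytokinin, 97.7 with JA, 2.4 with cytokinin and 6.66 in control roots (interaction -3.72). Both were high with JA alone and below control with JA/cytokinin. EARLI1 overlaps another annotated gene on the opposite strand, as do GER1, BHLH38 and GASA6. Strand use is not given, so reads of these overlaps cannot be assigned with certainty, and the counting intervals do not cover this. CAF1a, annotated as a ribonuclease H-like protein, had 21.5 FPKM with JA/cytokinin, 69.6 with JA, 24.4 with cytokinin and 7.98 in control roots (interaction -3.29).

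Among genes highest with both hormones the gibberellin-regulated peptide gene GASA5 had 124 FPKM with JA/cytokinin, 3.44 with JA, 24.5 with cytokinin and 5.95 in control roots (interaction 3.11). CYP71A27, a cytochrome P450 gene, had 114 FPKM with JA/cytokinin, 7.79 with JA, 38.1 with cytokinin and 14.9 in control roots (interaction 2.51). Cytokinin alone raised both, and JA alone did not. Among stress genes KIN1, known from cold and dehydration, had 88.0 FPKM with JA/cytokinin, 19.4 with JA, 13.4 with cytokinin and 10.8 in control roots (interaction 1.86). The small heat shock protein gene HSP17.6II had 9.54 FPKM with JA/cytokinin, 0.468 with JA, 1.80 with cytokinin and 1.11 in control roots (interaction 3.43), whereas HSP70 (-1.66) and HSP90.1 (-2.07) were less than additive. HSP17.6II reached 5 FPKM only in the JA/cytokinin library and so entered the set through it, which favours a call. Of 13 heat shock protein genes 2 were more and 2 less than additive, and 10 lay below 0 (median -0.16).

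Over all genes 5.25% were more and 2.92% less than additive, beside which the large families are given without a test. Of 57 lipid transfer proteins 19 were more and 8 less than additive, of 53 class III peroxidases 13 and 6, of 76 pectin enzymes 11 and 2, of 12 germin-like proteins 5 and 1, and of 15 defensins and thionins 5 and 4. Of 99 cytochrome P450 genes 7 were more and 11 less than additive, of 49 MYB factors 4 and 9, of 45 WRKY factors 3 and 3, and of 37 NAC factors 4 and 1. By annotated product, 13 of 41 thioredoxin superfamily genes were more than additive (31.7%) and 0 less, which includes the run on chromosome 4. Of 15 RmlC-like cupins 5 were less than additive, and of 17 VQ motif proteins, small partners of WRKY factors, 4.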

How the data were processed

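Total RNA from Col-0 roots was sequenced as 1 paired-end library per condition. The authors mapped reads to TAIR10 (Bowtie is named in the submitters' processing notes, versions not given) and calculated FPKM with Cufflinks. They deposited 1 FPKM value per gene and library and the read count of each library, and all 4 FPKM columns were used. Strand use is not given in the sources used here. Of 33565 loci, 32818 matched RefSeq TAIR10.1, the source of names, positions and promoter windows. Mapped fragments were estimated from the FPKM step of 1 fragment in 21669 genes with 1 transcript (fragment length 165). Intervals combine exact Poisson limits and cover counting error only.

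Members and lists were chosen with earlier results of these data known. Genes named are the 10 highest and 10 lowest interactions with at least 1 FPKM in all libraries, the 5 highest and 5 lowest under 1 FPKM in some, the 3 largest per response class and list members. Others (the glutaredoxin domain and ER folding lists, families and neighbouring runs) were chosen after their values were seen. Of the list symbols, 15 had no match. Transcripts were compared with blastn 2.17.0. Values were computed in Python 3.11.15 with pandas 2.3.3, numpy 2.4.6 and scipy 1.17.1 and drawn with matplotlib 3.10.9, after the steps were tested on simulated data. Alternatives changed the pseudocount, filter, scaling, threshold and the scale of addition.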

Additional observations from a re-analysis of the deposited data

Results flagged for a closer look

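For the following named genes the response to one hormone was at least 2-fold in opposite directions without and with the other hormone. With 1 library per condition none of these differences was tested, and each value is the interaction on the log2 scale. JA lowered the transcript without cytokinin and raised it with cytokinin for AT4G15680 (4.58), AT1G32470 (3.76), PSAE-1 (3.48), DIR1 (7.06), AT1G06830 (4.48), ATCG00630 (6.32, listed at 0 with cytokinin) and FBA2 (4.68). It was the opposite for AT4G27654 (-3.20), AT4G27657 (-3.10), GDU6 (-2.98) and AT4G12490 (-6.63).

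Cytokinin lowered the transcript without JA and raised it with JA for AT4G16980 (4.55), AT4G15700 (4.02), DIR1 (7.06) and AT3G25190 (6.78). It was the opposite for CAF1a (-3.29), AT4G27654 (-3.20), AT4G27657 (-3.10), AT5G51440 (-3.00), AT4G12490 (-6.63), AT1G65500 (-5.68), AHP4 (-5.48), JRG21 (-4.74), AT1G21528 (-7.61, listed at 0 in control roots), AT4G30097 (-6.93, listed at 0 with JA/cytokinin) and AT2G36854 (-3.21). Where a library is listed at 0 the value is set by the added constant: with pseudocounts of 1 and 0.01 it was 3.17 and 9.62 for ATCG00630, -4.45 and -10.9 for AT1G21528, and -3.77 and -10.2 for AT4G30097. DIR1, a lipid transfer protein gene of systemic defence, had 2.32 FPKM with JA/cytokinin, 0.206 with JA, 0.596 with cytokinin and 11.6 in control roots. AT4G27654 had 3.03 FPKM with JA/cytokinin, 8.50 with JA, 10.5 with cytokinin and 3.08 in control roots, so that either hormone alone gave more than both together. AT4G27654 and AT4G27657 are neighbours on chromosome 4 of unknown function. DIR1, AT4G12490, AT4G16980, AT1G32470, PSAE-1, AHP4, AT4G30097 and AT2G36854 overlap other annotated genes, and reads of the overlap cannot be assigned with certainty.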

How the results depend on the processing

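The counts of more and less than additive genes were within 1.5 times the values given with a pseudocount of 1 (719 and 430) or 0.01 (888 and 484), after rescaling by median ratio or trimmed mean, with a mean filter, without zero listings and in protein-coding genes. They were 1467 and 792 of 20442 genes with at least 1 FPKM in any library, 232 and 198 of the 13280 with at least 5 FPKM in all 4 (54.0% of called genes then more, against 64.2%), 1782 and 1100 at 1.5-fold, and 414 and 204 at 3-fold. Adding responses on the FPKM scale gave 1192 and 645, of which 604 and 339 were also called on the log scale, and the cause was not tested. On that scale these named genes had the reverse sign: AT2G11271 (-1.02), PDF2.1 (-0.24), AT5G19890 (-3.84), AT4G11320 (-2.21), BNQ3 (-1.82), SNOR105 (0.86), RD29A (2.37), TAT3 (0.29), ARR11 (-0.073), FAR5 (-0.54), CYP86B1 (-1.39), CYP86A1 (-1.35), ABCG6 (-0.82), ACS2 (-0.49), ACS5 (-0.72), IRT1 (1.60), BHLH100 (1.84) and PSBS (3.36). AT2G11271, BNQ3 and SNOR105 are each listed at 0 in 1 library. Of 175 named genes a further 103 moved on that scale by over 1.5-fold, among them MLP328 (0.35), CYP735A2 (0.50), ARR16 (0.12) and MRN1 (-0.29), 54 moved with a pseudocount of 1 (PIN5 2.44) and 18 with 0.01, and 0 with rescaling. Of 53 list medians 44 moved by less than 1.5-fold and 9 by more on that scale, with a changed sign for suberin (-0.58 against 0.65), ethylene synthesis (-0.49 against 0.45), iron uptake (1.60 against -0.29), aquaporins (0.78 against -0.04) and flavonoids (-0.97 against 0.03). The others were root triterpenes (-0.17), xylem vessel identity (1.88), photosynthesis (4.94) and greening (2.05). No paired analysis was possible because the design holds 1 library for each condition, and no library could be left out.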

Other observations

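Among genes under 1 FPKM in some libraries, GASA6, a gibberellin-regulated peptide gene, had 0.0403 FPKM with JA/cytokinin, 0.171 with JA, 0.0450 with cytokinin and 66.4 in control roots, and the carbonic anhydrase gene CA2 had 0.103 FPKM with JA/cytokinin, 0.591 with JA, 0.114 with cytokinin and 89.9 in control roots. A terpene gene run on chromosome 3 (AT3G14530, AT3G14540 and GGPS3) was more than additive at 1.12, 1.77 and 1.54. GGPS3, which makes precursors of diterpenes, had 11.8 FPKM with JA/cytokinin, 2.30 with JA, 11.7 with cytokinin and 6.78 in control roots. A triterpene run on chromosome 5 (AT5G36130, CYP716A2 and PEN3, AT5G36150) had 1.92, 1.13 and 1.56. PEN3, a triterpene synthase gene, had 3.61 FPKM with JA/cytokinin, 0.139 with JA, 11.1 with cytokinin and 2.03 in control roots. In both runs the JA library was the low one, whereas the thalianol and marneral clusters of the report were highest with both hormones. These runs were named after their values were seen.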
